A study of Mus musculus with 6 samples.

Results

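RNA from RENCA cells, an established mouse renal adenocarcinoma line, was examined for 10 genes of the PARP family, taken by gene symbol from the 78298 genes of the count table: Parp1, Parp2, Parp3, Parp8, Parp9, Parp10, Parp11, Parp12, Parp14 and Dtx3l. The list was drawn up by name to set the interferon-inducible antiviral members beside the DNA-repair members. Here Parp9, Parp10, Parp11, Parp12, Parp14 and Dtx3l form the antiviral group (6 genes), Parp1, Parp2 and Parp3 the DNA-repair group (3 genes), and Parp8 stands in neither. The cells carried a lentivirus with the mouse Aqp1 coding sequence under the ubiquitin C promoter (oe-AQP1, 3 samples) or the matching empty vector (oe-NC, 3 samples). All samples had the same puromycin selection, at 2 μg/mL for 14 days, and all bear the same batch label. The cells were selected as transduced populations, and no untransduced RENCA sample was included. No source used here states whether the 3 samples of a group came from separate transductions. Their spread may therefore not cover differences between separately transduced populations.

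PARP enzymes use NAD+ to attach ADP-ribose to proteins. Parp1 and Parp2 build long poly-ADP-ribose chains at DNA breaks, which recruit repair factors, and Parp3 acts in double-strand break repair. Most other members attach a single ADP-ribose unit, and several of these, such as Parp10, Parp12 and Parp14, are induced by interferon and restrict viruses. Dtx3l is no PARP but a ubiquitin ligase of the Deltex family that works as a heterodimer with Parp9. The group names follow the usual description of these genes, and the deposited annotation divides them less sharply. Only terms listed directly for a gene were matched, so a gene with a narrower term alone was not counted for the broader term. Its term for defense response to virus is listed for Parp9 and Dtx3l alone of the 6 antiviral genes, and its general term for DNA repair for Parp2 and Parp9 alone of the 10. All 3 DNA-repair members carry the narrower term for double-strand break repair, but so do Parp9 and Dtx3l. The term for innate immune response is given to Parp9, Parp14 and Dtx3l, and the term for protein mono-ADP-ribosylation to 6 of the 10 genes, among them Parp3.

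Promoter windows of RefSeq (build GRCm38.p6), which run from 250 bases before to 50 bases after an annotated gene start, were found for 7 of the 10 genes, and no window was found for Parp9, Parp10 and Parp14. Each window was searched on both strands for the core of the interferon-stimulated response element (ISRE), written as GAAA, any 2 bases and GAAA again, and for TTCNNNGAA, the GAS pattern of interferon-responsive promoters. Among these 7 genes only Parp11 had a match, for both patterns and in the first of its 2 windows. The windows below are those of Parp11, the member with the largest change, of Dtx3l, which changed strongly without a match, of Parp1, which did not, and of Parp4, a family member outside the 10 genes that has matches and no call. Sequences are written 5′ to 3′ on the strand of the gene, with the matches in capitals.
Parp11, first window, chr6:127446590-127446889, plus strand: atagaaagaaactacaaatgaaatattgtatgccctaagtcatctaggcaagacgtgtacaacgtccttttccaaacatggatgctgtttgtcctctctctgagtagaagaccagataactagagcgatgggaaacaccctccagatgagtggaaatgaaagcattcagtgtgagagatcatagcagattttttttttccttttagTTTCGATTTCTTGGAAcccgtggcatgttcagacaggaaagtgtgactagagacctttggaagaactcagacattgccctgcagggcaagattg
Parp11, second window, chr6:127453377-127453676, plus strand: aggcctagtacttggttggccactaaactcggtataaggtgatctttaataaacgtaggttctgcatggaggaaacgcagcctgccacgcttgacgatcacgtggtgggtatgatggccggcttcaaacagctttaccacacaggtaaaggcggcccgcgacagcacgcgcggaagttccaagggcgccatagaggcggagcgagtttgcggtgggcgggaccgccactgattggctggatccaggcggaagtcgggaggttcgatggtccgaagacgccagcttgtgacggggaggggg
Dtx3l, chr16:35938978-35939277, minus strand: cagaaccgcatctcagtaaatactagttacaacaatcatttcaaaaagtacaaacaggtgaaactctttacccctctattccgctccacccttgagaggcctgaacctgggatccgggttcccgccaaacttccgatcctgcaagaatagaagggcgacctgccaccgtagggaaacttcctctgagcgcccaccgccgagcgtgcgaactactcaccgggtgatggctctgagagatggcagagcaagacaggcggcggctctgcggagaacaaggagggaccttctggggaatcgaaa
Parp1, chr1:180568641-180568940, plus strand: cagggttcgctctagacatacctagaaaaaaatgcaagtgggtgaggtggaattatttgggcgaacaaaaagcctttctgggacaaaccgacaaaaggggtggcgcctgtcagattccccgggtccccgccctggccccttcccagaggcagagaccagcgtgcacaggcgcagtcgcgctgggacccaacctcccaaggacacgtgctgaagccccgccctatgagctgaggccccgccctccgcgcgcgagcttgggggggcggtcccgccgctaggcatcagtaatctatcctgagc
Parp4, chr14:56575369-56575668, plus strand: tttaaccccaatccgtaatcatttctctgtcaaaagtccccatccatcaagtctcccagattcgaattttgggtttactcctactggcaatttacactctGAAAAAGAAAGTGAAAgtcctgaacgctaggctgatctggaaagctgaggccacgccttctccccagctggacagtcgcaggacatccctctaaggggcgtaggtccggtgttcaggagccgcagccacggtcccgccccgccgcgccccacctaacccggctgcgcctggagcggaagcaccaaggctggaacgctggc

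In the first Parp11 window the ISRE core match lay on the reverse strand at bases 207 to 216, and the TTCNNNGAA match at bases 214 to 222 overlapped it. Parp4 had 2 overlapping ISRE core matches on the forward strand, within bases 101 to 116. Over all 32851 windows, 3.44% held the ISRE core and 8.30% held TTCNNNGAA. A match describes the letters of a window, and its absence says only that these letters are not there.

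The libraries held 18385707 to 21920854 expected read counts after rounding, and 15523 genes passed the filter on low counts, all 10 members among them. Parp11 passed only through its counts in the oe-AQP1 samples. Aqp1, the delivered gene, had 7713, 8545 and 7838 counts in oe-AQP1 samples 1 to 3 against 41, 25 and 45 in oe-NC samples 1 to 3, as the labels have it, and its reads include those of the transgene. oe-NC sample 1 stood apart: its counts differed from those of the other oe-NC samples with a chi-square of 9.81 and 11.4 per gene, against 1.71 to 2.04 for the other pairs within a group, where sampling noise alone gives about 1. The calls on the members and the log2FC of Parp10 and Parp1 are therefore also given without it. Levels, and the values of most other genes, are given only with it. Of the 8 epithelial and renal markers, Epcam had no count in any sample, while Krt8, Krt18, Cdh16, Pax2 and Pax8 were well counted. Of the 7 tested, 5 were lower with Aqp1 (FDR below 0.05). The summed level of the 8 was 785 to 814 CPM in oe-AQP1 cells against 955 to 1060 CPM in oe-NC cells. CPM is the count scaled to a common library size, with TMM factors. The leukocyte marker Adgre1 had no count, Ptprc, Itgam and Cd3e had a mean of at most 1.33 counts in either group, whereas Cd68, Lyz2, Cd14 and Csf1r were counted in every sample. Csf1r, the receptor for macrophage colony-stimulating factor, was lower by a log2FC of -1.50 (FDR = 1.37e-05) and Lyz2 by -0.52 (FDR = 2.73e-04), while Cd68 had 0.15 (FDR = 0.0764) and Cd14 -0.16 (FDR = 0.147). In all, the summed level of the 9 macrophage and leukocyte markers was 59.1 to 62.3 CPM with Aqp1 and 69.4 to 71.3 CPM with the empty vector. Of the 4 tested, 2 were lower at an FDR under 0.05. Of 5 fibroblast markers 3 were tested, of which 1 was higher and 1 lower by the same threshold. Of 4 endothelial markers 1 was tested, and it did not pass. Among all genes tested, 16.0% passed as higher and 16.5% as lower, so 5 of 7 epithelial and renal markers is above the background. The other marker sets, with at most 4 genes tested, are too small for this comparison. The part of these marker differences in the results was not tested.

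All 6 antiviral genes rose in oe-AQP1 cells, whereas of the DNA-repair genes only Parp3 rose, by less than 2-fold. The comparison used limma-voom. Its log2 fold change (log2FC) is positive where oe-AQP1 cells were higher, and its FDR is the Benjamini-Hochberg adjusted p over all genes tested. A gene was called when its FDR lay below 0.05 and its log2FC beyond 1 in size, and each antiviral gene was called. Over all genes tested, 5.23% were called, 4.39% as increases and 0.844% as decreases. The log2FC of the antiviral genes ranged from 1.42 to 6.63 with a median of 2.14, that of the DNA-repair genes from -0.17 to 0.55 with a median of 0.06, and the median over all genes tested was 0.002. These groups were formed with earlier results of these data known. The 7 family genes outside the 10 ranged from -0.14 to 0.87, the highest being Zc3hav1, which is also antiviral. Of the other 4 members, Parp3 and Parp8 passed the FDR threshold with increases under 2-fold, and Parp1 and Parp2 did not pass it. In total 8 of the 10 members had an FDR under 0.05, all of them higher, where 32.5% of all genes tested had such an FDR in either direction and 16.0% as increases. Without oe-NC sample 1, the same 6 genes passed both thresholds and 9 had an FDR under 0.05, Parp1 being added, while the share of all genes tested with such an FDR also rose, to 40.3%. In RNA from whole cultures, a change in every cell and a change in the share of expressing cells cannot be told apart.

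**Figure D1:**
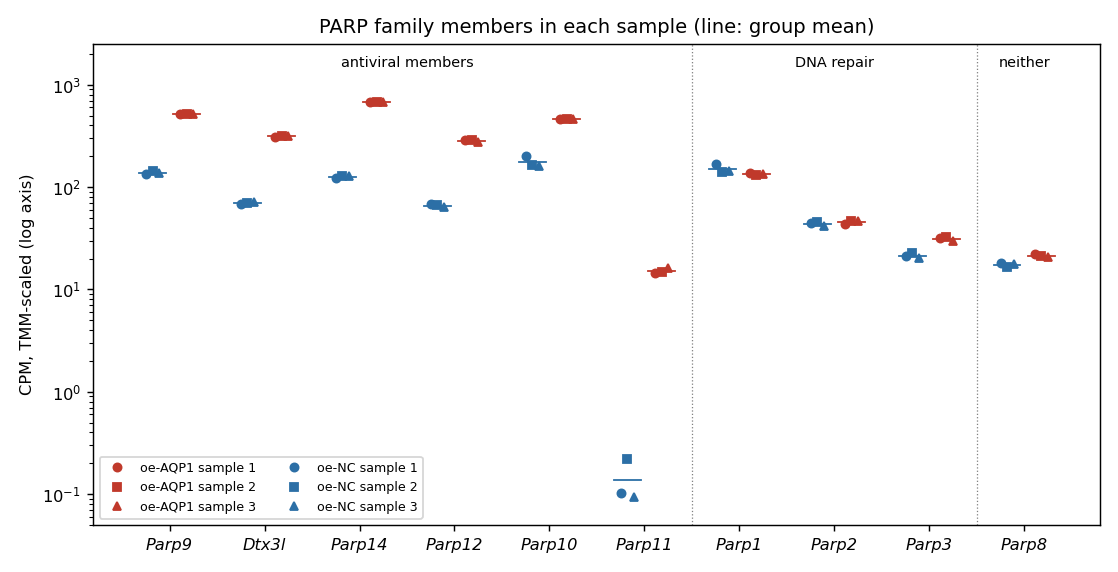
Level of each of the 10 genes in each of the 6 samples, in TMM-scaled CPM on a log axis, with a line at each group mean. For the 6 antiviral genes, Parp3 and Parp8 every oe-AQP1 sample lies above every oe-NC sample, as for 23.5% of all genes tested. For Parp2 the groups overlap, and for Parp1 the oe-NC samples are the higher ones.

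Parp14 (ENSMUSG00000034422), a large macrodomain protein that attaches single ADP-ribose units, had the highest CPM of the members in oe-AQP1 cells. Its level was 683.5, 677.1 and 683.1 CPM in oe-AQP1 samples 1 to 3 and 122.4, 129.0 and 128.8 CPM in oe-NC samples 1 to 3. The groups lay far apart and the samples within each were close. The log2FC was 2.43 (SE 0.035, FDR = 1.69e-11), a 5.38-fold increase with a 95% interval of 5.09 to 5.68. Among all genes tested, 47.3% had groups that did not overlap in CPM, and 23.5% did so with oe-AQP1 higher, so groups without overlap were common in these data.

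Parp9 (ENSMUSG00000022906), the partner of Dtx3l, had 513.3, 521.4 and 519.9 CPM in oe-AQP1 samples and 134.9, 143.1 and 138.0 CPM in oe-NC samples. It rose by a log2FC of 1.90 (SE 0.036, FDR = 7.74e-11), or 3.74-fold with a 95% interval of 3.54 to 3.95. Dtx3l itself (ENSMUSG00000049502) had 311.6, 315.9 and 314.6 CPM in oe-AQP1 samples and 67.61, 70.20 and 72.15 CPM in oe-NC samples. It rose somewhat more than Parp9, by a log2FC of 2.17 (SE 0.039, FDR = 6.18e-11) or 4.49-fold, and its 95% interval of 4.22 to 4.77 did not meet that of Parp9. The expected counts of Parp9 and Dtx3l were not whole numbers in every sample, and the annotated genes overlap head to head by 682 bp on opposite strands. Since no source used here states that reads were counted by strand, reads from the overlap cannot be assigned with certainty to either gene.

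Parp12 (ENSMUSG00000038507), a zinc finger protein that attaches single ADP-ribose units and is known to curb viral protein synthesis, had 287.2, 286.3 and 277.3 CPM in oe-AQP1 samples. In oe-NC samples it had 67.66, 66.81 and 63.42 CPM. The increase was 4.30-fold (95% interval 4.03 to 4.59), a log2FC of 2.10 (SE 0.042, FDR = 1.12e-10), and lay between those of Parp9 and Dtx3l.

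Parp10 (ENSMUSG00000063268), a mono-ADP-ribosyltransferase first described as a partner of MYC, had the smallest increase of the antiviral genes. It had 466.2, 465.8 and 465.8 CPM in oe-AQP1 samples, and 200.4, 164.3 and 161.0 CPM in oe-NC samples 1 to 3. The high control value is that of oe-NC sample 1, the library that stood apart. The log2FC was 1.42 (SE 0.068, FDR = 1.27e-07), or 2.67-fold with a 95% interval of 2.41 to 2.97, and it was 1.52 without oe-NC sample 1.

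Parp11 (ENSMUSG00000037997), which is linked to the nuclear envelope and attaches single ADP-ribose units, was almost silent in control cells and detectable in oe-AQP1 cells. It had 289, 325 and 330 counts in oe-AQP1 samples and 2, 4 and 2 counts in oe-NC samples. The fitted log2FC was 6.63 (SE 0.37, FDR = 4.36e-07), with a 95% interval of 5.81 to 7.46. Because the control level rests on 8 counts in all, the fitted value depends on how low counts are handled. As a ratio of summed counts per scaled library size the increase was 112-fold, with an exact 95% interval of 56.7 to 260.0 that covers counting error only. The relative increase was thus the largest of the 10 genes, while the level reached in oe-AQP1 cells, 15.15 ± 0.785 CPM (SD, n = 3), was the lowest.

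Among the DNA-repair genes, Parp1 (ENSMUSG00000026496), the main sensor of DNA strand breaks, had 136.0, 129.7 and 135.5 CPM in oe-AQP1 samples and 167.6, 141.6 and 144.6 CPM in oe-NC samples. All oe-AQP1 values were below all oe-NC values, with the highest control value again in oe-NC sample 1. The difference was small, a log2FC of -0.17 (SE 0.062, 95% interval -0.31 to -0.04), and its FDR of 0.0536 just missed the threshold. Without oe-NC sample 1 the log2FC was -0.10 with an FDR of 0.0106, without sample 2 it was -0.22 with an FDR of 0.034, and without sample 3 it was -0.21 with an FDR of 0.0488. Without an oe-AQP1 sample the FDR was 0.109 to 0.18. The call on Parp1 therefore changed with the samples used, while its change stayed small.

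Parp2 (ENSMUSG00000036023), which acts beside Parp1 in single-strand break repair, had 43.29, 46.98 and 46.64 CPM in oe-AQP1 samples and 44.12, 45.52 and 41.66 CPM in oe-NC samples. The groups overlapped, and the log2FC of 0.06 (SE 0.056, FDR = 0.426) had a 95% interval of -0.06 to 0.19. Parp3 (ENSMUSG00000023249) had 31.56, 32.52 and 29.42 CPM in oe-AQP1 samples against 21.14, 22.71 and 20.08 CPM in oe-NC samples. It was the only DNA-repair gene of the 3 to rise, by a log2FC of 0.55 (SE 0.069, FDR = 1.81e-04) or 1.47-fold (95% interval 1.32 to 1.63). The Parp3 gene overlaps Rrp9 on the opposite strand by 998 bp, and Rrp9 had a log2FC of 0.09 (FDR = 0.403).

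Parp8 (ENSMUSG00000021725), a mono-ADP-ribosyltransferase whose function is less well known, had 22.10, 21.01 and 20.82 CPM in oe-AQP1 samples and 17.98, 16.52 and 17.78 CPM in oe-NC samples. It rose by a log2FC of 0.29 (SE 0.066, FDR = 0.00792), or 1.22-fold. This increase was larger than the spread between replicates, but smaller than that of Parp3 and of every antiviral gene.

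**Figure D2:**
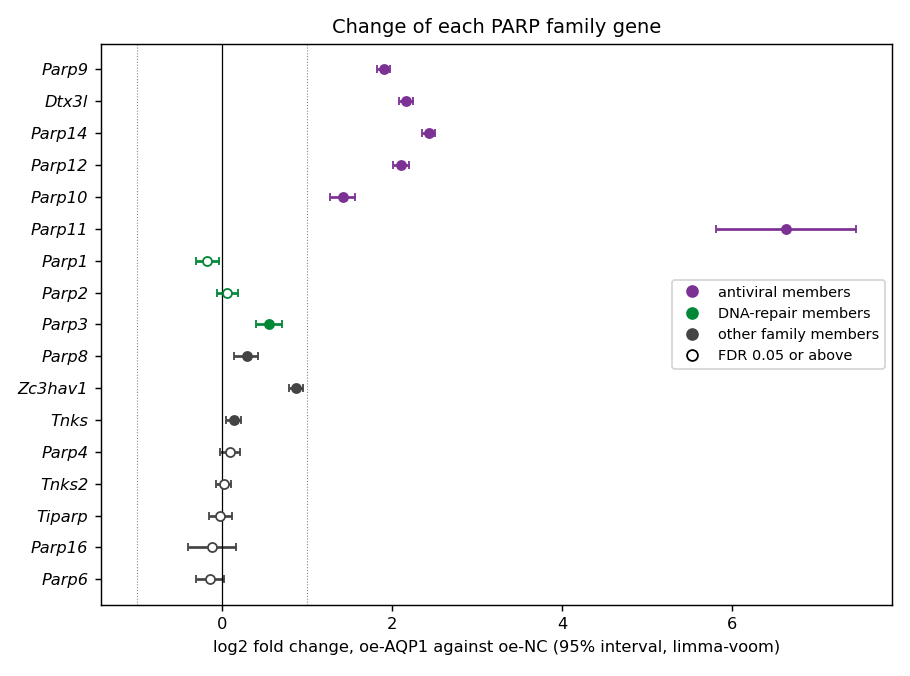
Log2FC between oe-AQP1 and oe-NC cells (positive: higher in oe-AQP1) for the 10 genes and the 7 further genes of the PARP family, with 95% intervals from limma-voom (open circles: FDR of 0.05 or above; dotted lines: log2FC of 1 and -1). The antiviral genes lie to the right of 1, from Parp10 at 1.42 to Parp11 at 6.63, and every other family gene lies between -0.17 and 0.87.

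To compare levels between genes, CPM was divided by the length of all annotated exons in kilobases. In oe-NC cells, Parp10 was the highest on this scale, at 40.9 ± 5.10 CPM per kb (SD, n = 3). It was followed by Parp9 at 27.6 ± 0.832, Parp1 at 20.8 ± 1.95, Parp12 at 15.2 ± 0.515, Parp14 at 13.2 ± 0.388 and Dtx3l at 12.2 ± 0.398 CPM per kb. Antiviral genes other than Parp11 were thus already expressed in control cells at a level per length comparable to that of Parp1. Parp2 (10.1 ± 0.450), Parp3 (5.58 ± 0.346), Parp8 (1.36 ± 0.0615) and Parp11 (0.0107 ± 0.00544) had lower levels per kb.

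In oe-AQP1 cells the order of these levels was Parp10 (109 ± 0.0507 CPM per kb), Parp9 (103 ± 0.855), Parp14 (71.1 ± 0.373), Parp12 (65.1 ± 1.26) and Dtx3l (54.9 ± 0.380). Parp1 had fallen in rank from place 3 to place 6, at 18.4 ± 0.484 CPM per kb, and Parp11, at 1.18 ± 0.0610, stayed last behind Parp8 at 1.66 ± 0.0539. In neither group did the sample ranges of neighbours in the order overlap. The order depends on the length chosen. With the longest transcript as the length, Parp9 stood above Parp10 and Parp11 above Parp8 in oe-AQP1 cells, and Parp2 stood at place 4 instead of 7 in oe-NC cells.

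Summed over the role groups, the antiviral genes reached 404, 405 and 403 CPM per kb in oe-AQP1 samples 1 to 3, and 114, 108 and 106 in oe-NC samples 1 to 3. The DNA-repair genes summed to 36.9, 37.1 and 37.0 CPM per kb in oe-AQP1 samples while oe-NC samples gave 38.7, 35.9 and 34.7. The antiviral sum was therefore at least 10.9 times the DNA-repair sum in each oe-AQP1 sample, against 2.94 to 3.05 times in the oe-NC samples. The antiviral genes made up 91.3% of the summed level of the 10 genes in each oe-AQP1 sample and 73.9% to 74.6% in oe-NC samples. These sums and shares also depend on the length chosen, which alters the genes unequally. With the longest transcript, the mean in oe-AQP1 cells was 20.3 instead of 10.5 CPM per kb for Parp2 and 59.2 instead of 54.9 for Dtx3l.

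**Figure D3:**
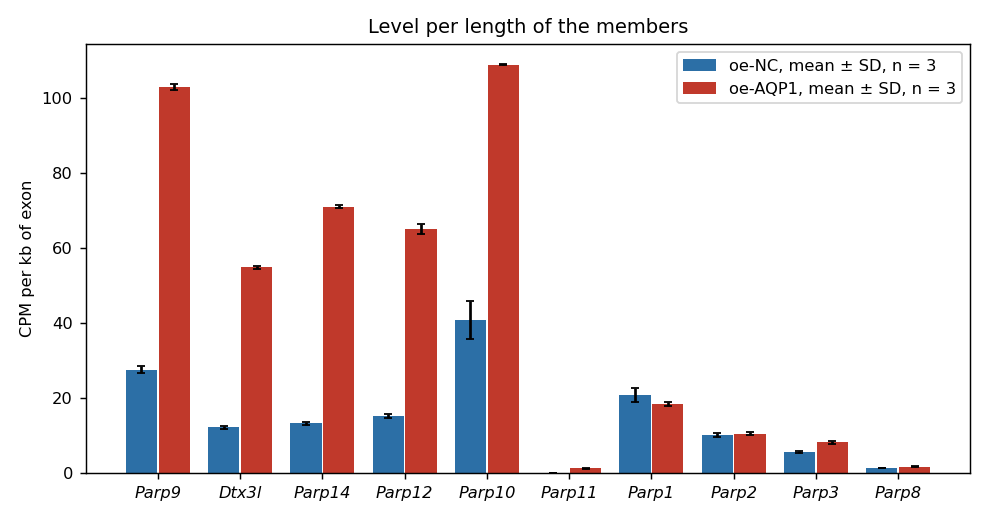
Level per length of the 10 genes, in CPM per kb of exon, as the mean of 3 samples with the SD as error bar for oe-NC and oe-AQP1 cells. Parp10 and Parp9 are highest in both groups, and the bars of Parp1 and Parp2 differ little between groups.

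Ratios between members within a sample do not depend on the scaling between libraries. The ratio of Parp9 to Dtx3l counts was 1.65 in each of the 3 oe-AQP1 samples and 1.99, 2.04 and 1.91 in oe-NC samples, so that its log2 value was lower by 0.26 in oe-AQP1 cells. Parp14 went from 0.908, 0.901 and 0.933 times the count of Parp9 in oe-NC samples to 1.33, 1.30 and 1.31 times in oe-AQP1 samples. The 3 neighbouring genes thus rose to different extents, Parp14 most and Parp9 least. Against Parp1, Parp14 went from a ratio of 0.731 to 0.911 in oe-NC samples to a ratio of 5.03 to 5.22 in oe-AQP1 samples. The ratio of Parp2 to Parp1 overlapped between groups, with 0.318, 0.362 and 0.344 for oe-AQP1 against 0.263, 0.321 and 0.288 for oe-NC. That of Parp3 to Parp1 did not overlap, with 0.232, 0.251 and 0.217 for oe-AQP1 against 0.126, 0.16 and 0.139 for oe-NC.

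**Figure D4:**
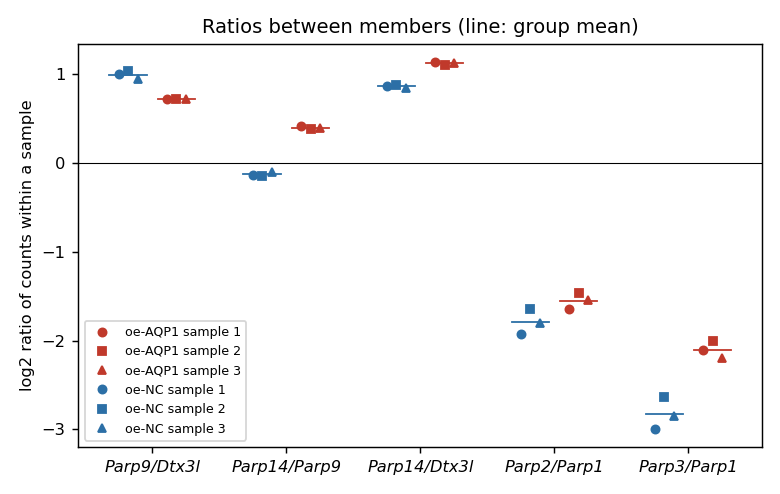
Log2 ratio of the counts of 2 members within each sample, with a line at each group mean. The Parp9 to Dtx3l ratio is lower and both Parp14 ratios are higher in the oe-AQP1 samples without overlap. The Parp2 to Parp1 ratio overlaps between groups, while the Parp3 to Parp1 ratio is higher in the oe-AQP1 samples without overlap.

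Parp14, Dtx3l and Parp9 lie together on chromosome 16 of GRCm39 (GENCODE M39). Parp14 runs from 35653231 to 35692003 and Dtx3l from 35746881 to 35759521, both on the minus strand, and Parp9 runs from 35758840 to 35792980 on the plus strand. The 3 genes span 139.8 kb. Within 200 kb on either side, 11 genes were tested, these 3 included. Of the 8 others, none passed the fold threshold. Over all genes tested, 5.23% passed both thresholds and 32.5% had an FDR under 0.05, so that none of 8 past the fold threshold is near the background. Hspbap1, next to Parp14 at a gap of 4.38 kb, had a log2FC of 0.09 (FDR = 0.316), and Kpna1, which encodes a nuclear import receptor and starts 6.14 kb beyond Parp9, had a log2FC of 0.14 (FDR = 0.0182). Fam162a was lower, with a log2FC of -0.50 (FDR = 3.32e-04), and so was Slc49a4, with a log2FC of -0.18 (FDR = 0.0395). The antisense lncRNA ENSMUSG00000142543, which overlaps Parp14 by 197 bp, had 129, 119 and 145 counts in oe-AQP1 and 82, 71 and 78 in oe-NC samples, a log2FC of 0.68 (FDR = 0.00442).

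**Figure D5:**
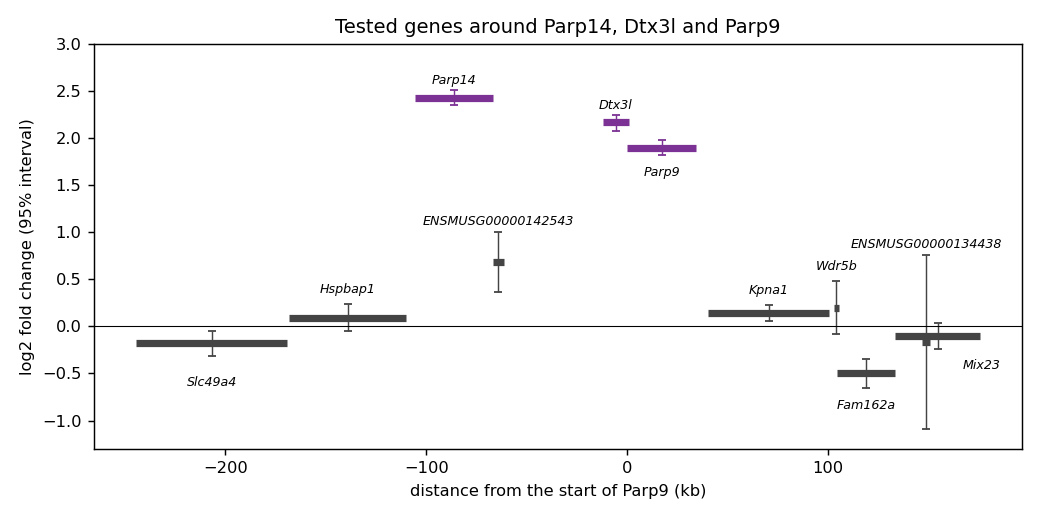
Log2FC with 95% interval of the 11 tested genes within 200 kb of the Parp14, Dtx3l and Parp9 cluster, drawn as bars over each gene's extent at its distance from the start of Parp9 in kb. Parp14, Dtx3l and Parp9 lie between 1.90 and 2.43, and the other 8 genes between -0.50 and 0.68.

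The other antiviral members lie elsewhere: Parp10 on chromosome 15 (76115374 to 76127648), and Parp11 (127423483 to 127491198) and Parp12 (39063342 to 39095573) far apart on chromosome 6. The nearest tested neighbours of Parp10 moved in opposite directions. Plec, a cytoskeletal linker that overlaps it by 1401 bp on the same strand, had a log2FC of -0.45 (FDR = 0.00745), and Grina had a log2FC of 0.25 (FDR = 0.00299). Both values include oe-NC sample 1, which stood apart. Plec had 309.6 CPM in it against 240.0 and 220.3 in oe-NC samples 2 and 3, and Grina 711.2 against 628.6 and 622.8. Reads from the stretch shared with Plec cannot be assigned with certainty. The nearest tested neighbours of Parp11 were 337 kb and 447 kb away, Tigar with a log2FC of 0.09 (FDR = 0.191) and Tspan9 with a log2FC of -0.44 (FDR = 1.77e-04).

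Parp12 overlaps the lncRNA 4930599N23Rik head to head by 267 bp. This lncRNA rose with it, from 2, 2 and 8 counts in oe-NC samples to 25, 29 and 22 in oe-AQP1 samples (log2FC = 2.67, FDR = 0.00101), at counts too low to fix its size. On the other side of Parp12, at 210 kb, Hipk2 had 4, 9 and 5 counts in oe-AQP1 samples against 18, 12 and 11 counts with the empty vector. Its log2FC was -1.22 (FDR = 0.0352).

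Around the remaining genes, changes were small. Parp1 on chromosome 1 (180396443 to 180431307) had Itpkb (log2FC = 0.32, FDR = 0.0157) and Lin9 (log2FC = 0.30, FDR = 0.00631) as nearest tested neighbours, both higher while Parp1 was not. Parp2 on chromosome 14 (51044948 to 51058759) lay beside Ccnb1ip1 (log2FC = 0.32, FDR = 0.407) and Tep1 (log2FC = -0.27, FDR = 0.0148). Parp3 on chromosome 9 (106347521 to 106354159) had Pcbp4 on its other side, with a log2FC of -0.05 (FDR = 0.712). Beside Parp8 on chromosome 13 (116987380 to 117162073) lay 4930435F18Rik (log2FC = 0.40, FDR = 0.182) and Emb, which was lower at a log2FC of -0.50 (FDR = 2.06e-05).

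Of the 7 further genes of the PARP family, all were tested, 2 were higher at an FDR under 0.05, none was lower, and none passed the fold threshold. Over all genes tested, 16.0% were higher and 16.5% lower at this FDR. Only 5.23% passed both thresholds, so that none of 7 is near the background. Their median log2FC was 0.02. The larger increase was that of Zc3hav1, the zinc finger antiviral protein that binds CpG-rich viral RNA, with a log2FC of 0.87 (SE 0.036, FDR = 3.52e-08). Its level was 123.5 ± 2.29 CPM in oe-NC cells and 225.3 ± 1.21 CPM in oe-AQP1 cells (SD, n = 3). Tnks, a tankyrase that builds poly-ADP-ribose on telomere and Wnt pathway proteins, had a log2FC of 0.14 (FDR = 0.0185). Its relative Tnks2 had a log2FC of 0.02 (FDR = 0.732). Parp4, the member of the vault particle, whose promoter window is shown above, had a log2FC of 0.10 (FDR = 0.173). The log2FC was -0.14 for Parp6 (FDR = 0.181), -0.12 for Parp16 (FDR = 0.514) and -0.02 for Tiparp, an aryl hydrocarbon receptor target (FDR = 0.838). All 4 Deltex relatives of Dtx3l were tested and none had an FDR under 0.05, with a median log2FC of -0.02 and values from -0.14 to 0.13.

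Of 10 genes that remove or read ADP-ribose 7 were tested, and 1 was higher and none lower at an FDR under 0.05, with a median log2FC of -0.03. Over all genes tested, 16.0% were higher and 16.5% lower at this FDR, so 1 of 7 is near the background. The largest difference was that of Macrod2, a macrodomain hydrolase, with a log2FC of -0.71 (SE 0.26) and an FDR of 0.0616. Its counts were low, with 37, 53 and 36 in oe-AQP1 samples against 56, 46 and 101 in oe-NC samples 1 to 3. The difference thus leans on oe-NC sample 3. The gene that rose was Parg, the glycohydrolase that degrades poly-ADP-ribose chains (log2FC = 0.25, FDR = 0.00179). Among 12 partners in single-strand break repair, all tested, 2 rose and 1 fell, and the median log2FC was -0.01. The repair polymerase gene Polb rose by a log2FC of 0.32 (FDR = 6.15e-04) and the flap endonuclease gene Fen1 by 0.15 (FDR = 0.0382), whereas Chd1l, a chromatin remodeller recruited by poly-ADP-ribose, had a log2FC of -0.36 (FDR = 0.00188). Of 10 genes of NAD supply 8 were tested. Of these 1 rose, namely Nampt, the rate-limiting enzyme of NAD salvage, with a log2FC of 0.70 (FDR = 6.52e-07), none fell, and the median was -0.06.

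Of 9 interferon signalling genes, all tested, 6 were higher and 1 lower at an FDR under 0.05, 4 of the increases passed the fold threshold, and the median log2FC was 0.68. Over all genes tested, 16.0% were higher, 16.5% lower and 4.39% higher past the fold threshold. Among the increases were those of Stat2 (log2FC = 1.97, FDR = 8.79e-11) and Irf7 (log2FC = 1.97, FDR = 3.45e-11). Irf9, the DNA-binding subunit of the ISGF3 transcription factor, had a log2FC of 0.68 (FDR = 4.31e-07). The lowest was Jak1, a receptor-associated kinase, at -0.11 (FDR = 0.0458). Stat2 rose 3.91-fold (95% interval 3.69 to 4.14) and Irf7 3.91-fold (3.72 to 4.11). The intervals of Parp9 and Parp12 met both of these, those of Dtx3l, Parp14 and Parp11 lay above them, and that of Parp10 lay below.

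Outside the family, the 5 genes whose log2 CPM over the 6 samples lay nearest to the mean profile of the 6 antiviral genes, by Euclidean distance after centring, were Mx2 (distance 0.134), Ccl2 (0.184), Ifi47 (0.197), Bank1 (0.215) and Gbp4 (0.272). Mx2 is an interferon-induced antiviral GTPase, Ifi47 and Gbp4 are GTPases of the IRG and guanylate-binding families, Ccl2 is a monocyte chemokine and Bank1 a scaffold protein known from B cells. Their log2FC was 2.74 for Mx2, 2.60 for Ccl2, 2.82 for Ifi47, 2.83 for Bank1 and 2.48 for Gbp4. The mean profile leans on Parp11: its group difference was 2.68 in log2 CPM, against 2.00 without Parp11, and each of these genes had a larger log2FC than the other 5 antiviral genes. With Parp11 left out of the profile, a choice made after seeing the data, the 5 nearest genes were Irf7 (distance 0.0665), Stat2 (0.0667), Oas3 (0.0928), Oas1b (0.0945) and Trim30a (0.117), none of them shared with the first 5. Oas3 and Oas1b belong to the oligoadenylate synthetases, which sense double-stranded RNA, and Oas1b and Trim30a have close paralogs with which reads may be shared. With 6 samples in 2 groups, such a distance reflects mainly the size of the group difference.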

How the data were processed

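Total RNA was made into TruSeq libraries and read paired-end, and the authors deposited expected counts per gene for each of the 6 samples, not scaled between samples. The submitters' processing notes list fastp, HISAT2, featureCounts and Subread with the builds GRCm38 and mm10, whereas the study's methods name GRCm39; 78168 of the 78298 deposited gene identifiers were found in GENCODE M39 on GRCm39, the source of positions and exon lengths. The 2 deposited columns of group means were not used. Promoter windows are from RefSeq, GRCm38.p6.

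The test, the TMM scaling and the thresholds followed the study's methods: limma-voom (limma 3.58.1, edgeR 4.0.16, R 4.3.3), Benjamini-Hochberg adjustment over 15523 genes, with calls at an FDR below 0.05 and a log2FC beyond 1 in size. Rounding to whole numbers and edgeR's filterByExpr by group were chosen here. The study also filtered out interferon-stimulated and antiviral genes as possible transfection artifacts. That step was not applied here, since it concerns the genes described. The 6 samples entered as separate replicates, so SEs, intervals and FDRs measure the spread between samples. Whether this spread includes that between separate transductions is not stated. The fit was also run on simulated data with 200 changed genes, all changed beyond the fold threshold, and no sample standing apart. That setting does not cover small changes such as those of Parp1, Parp3 and Parp8. As alternatives served DESeq2 1.42.0, edgeR's quasi-likelihood test, other scalings and filters, sample weights, a block, unrounded counts and leaving out each sample. Intervals are 95%.

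The members and gene lists were chosen with earlier results of these data known. Besides the members, the text names Aqp1, all further PARP genes, called extremes of each list, Stat2 and Irf9, nearest neighbours and the 5 nearest profiles. Other named genes (markers, Irf7, Fam162a, Slc49a4, Macrod2, and the profile without Parp11) were chosen after their values were seen. GO terms were added after the files were seen. Single values of 2 genes on the lists are not reported here.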

Additional observations from a re-analysis of the deposited data

How the results depend on the processing

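In each of the 16 alternatives the antiviral genes tested passed both thresholds: 6 in 15 of them, and 5 under a floor of 10 counts in each sample, which removed Parp11 from the test. Leaving out each sample in turn gave 6 genes each time, and the difference of the median log2FC between antiviral and DNA-repair genes, 2.07, stayed between 2.03 and 2.11. It was 2.04 with Parp8 counted among the antiviral genes. No member's log2FC changed sign. Parp1 had an FDR under 0.05 in 8 of 16 alternatives (FDR 0.0106 to 0.18, log2FC -0.22 to -0.10), DESeq2 among them, so that 8 or 9 members passed the FDR threshold, and 7 of the 9 tested under the floor of 10 counts. Parp11 ranged from a log2FC of 6.43 to 6.95.

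Over all genes, 812 passed both thresholds, 766 to 889 with a sample left out, and 482 (416 higher, 66 lower) with at least 10 counts in every sample, where fewer genes, 14006, were tested. There were 1135 (932 higher, 203 lower) of 34270 with no filter beyond 1 count, and 705 with DESeq2. At an FDR under 0.05 there were 5049, and 3600 to 6458 with a sample left out, the highest without oe-NC sample 1. Same-numbered samples of the groups did not deviate together (r = 0.00912, -0.00423 and -0.0679). With so few samples and oe-NC sample 1 standing apart, this does not settle whether same-numbered samples were handled together. With a replicate block 786 genes passed both thresholds, and of the members 6, with 9 under the FDR threshold, Parp1 being the added gene. With the longest transcript as length every level per length rose, with the changes of order given above. At this depth the control level of Parp11, 2 to 4 counts, limits its fold change.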
